A study of Mus musculus with 6 samples.

Results

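The transcripts examined here are those of the 3 TGF-β ligands Tgfb1, Tgfb2 and Tgfb3, the 4 latent TGF-β binding proteins Ltbp1, Ltbp2, Ltbp3 and Ltbp4, and Lrrc32. They were taken by gene name from a table of 55487 genes, and all 8 had counts high enough to be tested among the 16565 genes that were. Bulk RNA-seq had been performed on the aorta of male mice on a C57BL/6 background, 3 of them controls and 3 with an inducible smooth muscle knockout of Prdm16 (iSM KO). Mice of both groups carried the Myh11-CreERT2 transgene, which expresses a tamoxifen-dependent Cre recombinase in smooth muscle cells (SMCs) and sits on the Y chromosome, so that only males could be used. The iSM KO mice were homozygous for a Prdm16 allele with floxed exon 9 (Prdm16 F/F) and the controls, labelled WT, were homozygous for the wild-type allele (Prdm16 W/W). Both groups received 10 injections of tamoxifen from 8 weeks of age, at 1 mg per mouse and day, and aortas were taken 60 days after a tamoxifen-free interval of 2 weeks. The vessels were not injured, and the adventitia had been stripped before RNA extraction. Prdm16 encodes a zinc finger transcriptional regulator, and the comparison asks how its loss from SMCs alters the transcripts that make, store and present TGF-β in the vessel wall.

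TGF-β is secreted in a latent form. Each ligand precursor is cut by furin-type proteases, and its propeptide (LAP) stays wrapped around the mature growth factor. LAP in turn is disulfide-linked to a latent TGF-β binding protein, which tethers the complex to fibrillin and fibronectin in the extracellular matrix, or to GARP, the product of Lrrc32, which holds it on the surface of regulatory T cells, platelets and endothelial cells. Integrins and proteases then release the ligand. Ltbp1 and Ltbp3 bind all 3 latent ligands, Ltbp4 binds latent TGF-β1 weakly, and Ltbp2 resembles the others in structure but does not bind latent TGF-β and acts in microfibril and elastic fibre assembly. SMCs of the aortic media are a source of the ligands and binding proteins, and mutation of these genes in patients is linked to aneurysm (TGFB2, TGFB3), skeletal and dental defects (LTBP3) or loss of elastic fibre integrity (LTBP4).

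Of the 8 transcripts, 3 rose in iSM KO aortas and none fell. Tgfb2 rose 2.05-fold (95% interval 1.65 to 2.54), Ltbp2 rose 1.79-fold (1.53 to 2.09) and Ltbp1 rose 1.54-fold (1.32 to 1.78), at an FDR of 0.00260, 0.00157 and 0.00555 in edgeR (quasi-likelihood test, Benjamini-Hochberg adjustment over all genes tested). Among all 16565 genes tested, 4.26% were higher at an FDR under 0.05 and 3.30% were lower. Only Tgfb2 also passed the fold change of 2, as did 1.40% of all genes in the higher direction. The other 5 transcripts did not pass the FDR, and their intervals are given with each gene. Reads were counted per whole gene, normalised counts are in CPM, scaled to library size with TMM factors, and errors are SD over 3 mice unless stated otherwise.

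The sequences just upstream of the genes that rose are shown first, since members that move together may be read side by side. RefSeq promoter windows on GRCm38.p6 matched 6 of the 8 genes, by 9 start sites, with no window for Tgfb3 and Lrrc32. The 250 bases before the start are printed 5′ to 3′ on the strand of the gene. The letters of 6 motifs were searched on both strands, and capitals mark their matches, of which none overlap in these windows. The core of the TATA box was searched as TATAAA. An E-box bound by helix-loop-helix factors was searched as CACGTG. The cyclic AMP response element was searched as TGACGTCA. Sites of the AP-1 factors were searched as TGANTCA. The short element bound by SMAD proteins was searched as CAGAC. The CArG box, bound by serum response factor, was searched in its usual consensus form.
Tgfb2, chr1:186705990-186706239, minus strand: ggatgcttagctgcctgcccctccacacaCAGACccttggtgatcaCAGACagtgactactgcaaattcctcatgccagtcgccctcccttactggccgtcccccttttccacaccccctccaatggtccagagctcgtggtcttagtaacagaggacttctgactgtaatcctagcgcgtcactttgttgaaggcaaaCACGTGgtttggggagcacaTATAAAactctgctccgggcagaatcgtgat
Ltbp1, upstream start, chr17:75005279-75005528, plus strand: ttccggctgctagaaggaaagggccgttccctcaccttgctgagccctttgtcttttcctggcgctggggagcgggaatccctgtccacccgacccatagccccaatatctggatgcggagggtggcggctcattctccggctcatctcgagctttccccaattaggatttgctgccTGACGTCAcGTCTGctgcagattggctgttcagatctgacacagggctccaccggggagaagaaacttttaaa
Ltbp1, downstream start, chr17:75178531-75178780, plus strand: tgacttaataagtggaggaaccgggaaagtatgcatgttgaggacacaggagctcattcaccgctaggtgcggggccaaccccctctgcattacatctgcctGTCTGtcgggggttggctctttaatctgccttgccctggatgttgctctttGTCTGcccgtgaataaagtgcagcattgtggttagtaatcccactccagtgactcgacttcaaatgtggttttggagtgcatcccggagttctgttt
Ltbp2, chr12:84876492-84876741, minus strand: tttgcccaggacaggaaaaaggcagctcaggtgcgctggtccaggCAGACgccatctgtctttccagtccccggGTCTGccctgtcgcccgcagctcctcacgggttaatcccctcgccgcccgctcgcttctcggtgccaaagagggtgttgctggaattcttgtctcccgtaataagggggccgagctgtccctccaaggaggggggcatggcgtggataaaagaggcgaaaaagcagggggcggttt

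The Tgfb2 window held TATAAA at -31 to -26 from the start and CACGTG at -51 to -46, besides 2 copies of CAGAC at -221 and -204. TATAAA was found in 12.4% and CACGTG in 6.02% of all 32851 windows of this length. The upstream Ltbp1 window held TGACGTCA at -73 to -66, found in 1.55% of all windows, and 1 CAGAC match on the other strand. In the downstream Ltbp1 window and in the Ltbp2 window the matches were to CAGAC alone, 2 in each. CAGAC is common, with at least 1 match in 42.2% of all windows. The 5 windows of members that did not pass the test belong to Tgfb1, Ltbp3 and 3 starts of Ltbp4. Of the Ltbp4 windows, those beginning at 27333649 and 27333664 overlap almost entirely. CAGAC was matched for Ltbp3 and not for Tgfb1 or Ltbp4, too few genes to compare with those that rose. Neither TGANTCA (6.75% of all windows) nor a CArG box (1.47%) was matched in any of the 9 member windows. GC content was 53.6% for Tgfb2, 56.8% and 50.8% for the Ltbp1 starts and 61.6% for Ltbp2, against a median of 52.4% over all windows. Members that did not pass lay on both sides of these values. Tgfb1 had 75.2% and the 3 Ltbp4 starts 64.4% to 79.2%, while Ltbp3 had 47.2%, the lowest of the member windows. A match is a string of letters in this window, and no binding was measured in these data.

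Libraries were deep, with 24911609 to 40460467 counts, and each member had 1071 to 57229 counts in each library. Control 3 had the smallest total. Protein-coding genes took 59.0% of its counts, against 64.6% to 67.6% in the other libraries. Small structural RNAs took 28.1% of its counts, against 22.8% to 25.2% in the others. Prdm16 itself was at 183, 223 and 179 CPM in controls 1 to 3 and at 93.8, 113 and 79.8 CPM in iSM KO mice 1 to 3. The groups did not overlap, and the log2 fold change of -1.03 (standard error 0.14, FDR = 0.00265 by edgeR's quasi-likelihood test) matched the labels. The tissue expressed the defining SMC markers Myh11, Acta2 and Tagln with the other 5 genes of that list, which together took 22497 to 27516 CPM in controls and 24268 to 26745 CPM in iSM KO. Of these 8 markers Myocd and Des rose and none fell. In a bulk tissue a smaller number of cells of a type and less RNA per cell cannot be told apart.

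**Figure D1:**
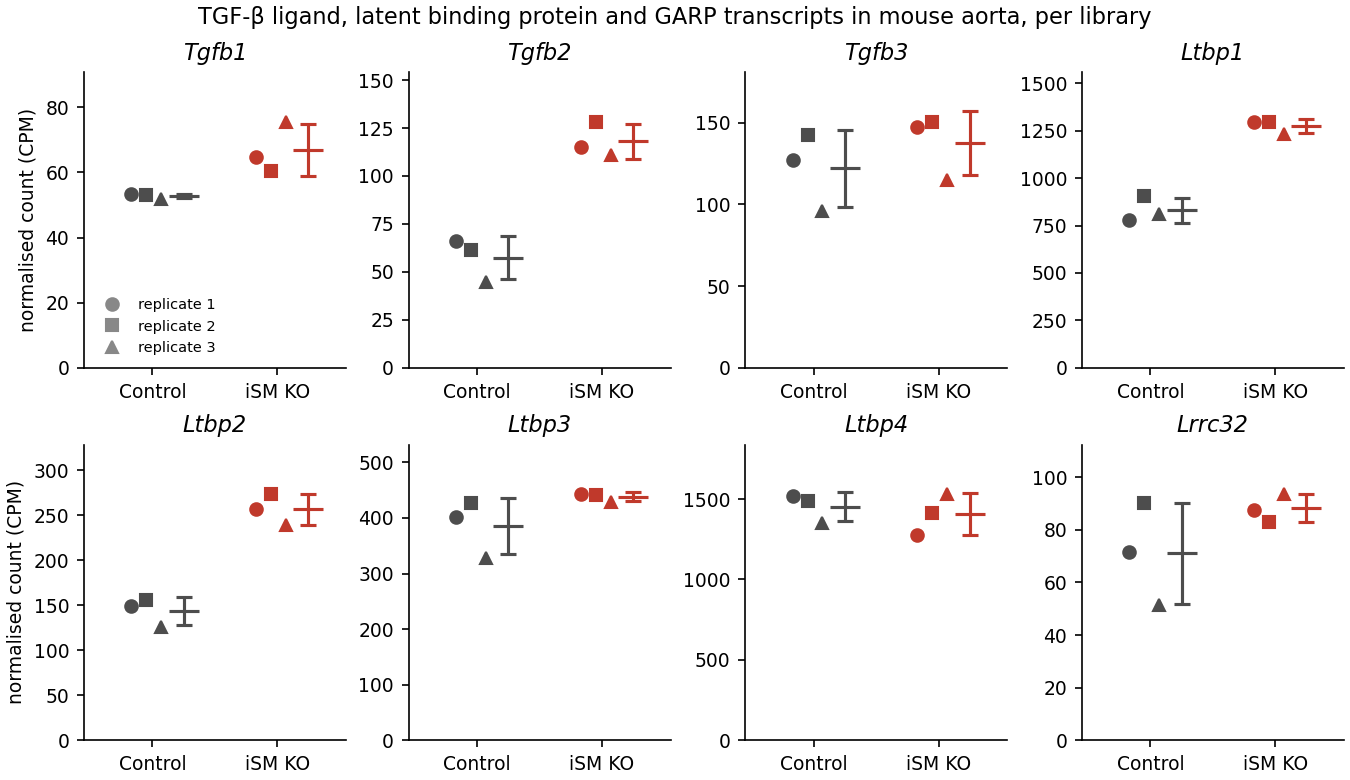
Normalised count (CPM, linear axes from 0) of each of the 8 transcripts in each library, controls in grey and iSM KO in red. Symbols mark replicates 1 to 3, and the bar with whiskers is the mean ± SD (n = 3). Tgfb2, Ltbp1 and Ltbp2 show a clear gap between groups, while Tgfb3, Ltbp4 and Lrrc32 overlap.

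Tgfb2 (ENSMUSG00000039239, minus strand of chromosome 1, 186622792 to 186705989 on GRCm38, 7 exons in its longest coding transcript) encodes the ligand that needs the co-receptor betaglycan for high-affinity binding to the type II receptor. It was at 66.3, 61.2 and 44.9 CPM in controls 1 to 3 and at 115, 128 and 111 CPM in iSM KO mice 1 to 3. Every iSM KO library was higher than every control, with 44.5 CPM between the highest control and the lowest iSM KO library. The means were 57.5 ± 11.2 and 118 ± 9.20 CPM. On the log2 scale the difference was 1.04 (standard error 0.14), and by p-value Tgfb2 ranked 225 among all genes tested. With each library left out in turn its FDR stayed under 0.05, but the log2 fold change went to 0.89 without Control replicate 3, which had the lowest Tgfb2, and to 0.97 without iSM KO replicate 2, which had the highest, both under a fold of 2.

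Tgfb1 (ENSMUSG00000002603, plus strand of chromosome 7, 25687002 to 25705077, 7 exons) encodes the most widely expressed of the ligands. Its 3 control libraries lay close together, at 53.4, 53.0 and 52.0 CPM, and the iSM KO libraries were at 64.8, 60.3 and 75.6 CPM. The groups did not overlap, and the gap between them was 6.92 CPM. The fold change of 1.27 (95% interval 1.10 to 1.46) did not pass the test over all genes (FDR = 0.0575 by edgeR's quasi-likelihood test). It did pass with DESeq2 (FDR = 0.0256) and when no filter on low counts was used (FDR = 0.0346), so its call depends on the tool and over all alternatives its FDR ran from 0.0256 to 0.165.

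Tgfb3 (ENSMUSG00000021253, minus strand of chromosome 12, 86056745 to 86079041, 7 exons) encodes the ligand best known from palate fusion and wound repair. It was at 127, 142 and 96.2 CPM in controls and at 147, 151 and 115 CPM in iSM KO. Replicate 3 was the lowest library in both groups, and the ranges overlapped. The log2 difference was 0.17 (standard error 0.15, 95% interval -0.17 to 0.52, FDR = 0.548 by edgeR's quasi-likelihood test), an interval that leaves room for a rise of up to 1.43-fold. It was 0.025 without Control replicate 3 and 0.30 without Control replicate 2. Its exons share 163 bp with Gm37804 and 257 bp with Gm48008 on the other strand, which had at most 33.7 and 5.84 counts in a library.

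**Figure D2:**
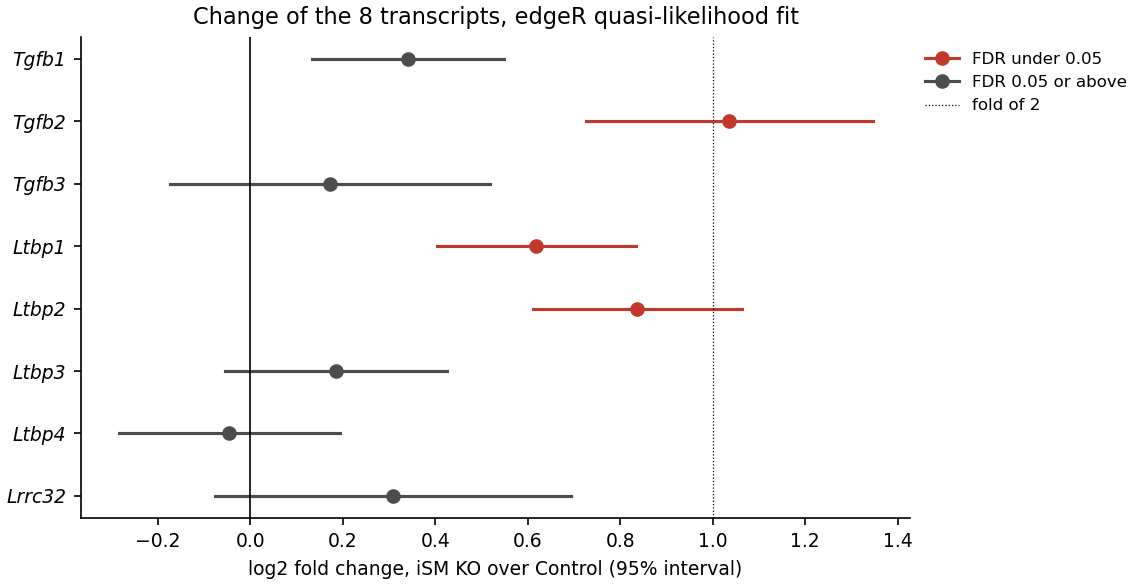
Log2 fold change of the 8 transcripts, iSM KO over Control, with 95% intervals from the edgeR quasi-likelihood fit of all 6 libraries. Red marks an FDR under 0.05 and the dotted line a fold of 2. Tgfb2 alone lies past the dotted line, and its interval from 0.73 to 1.35 spans it.

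A rise in Tgfb2 beside no call in the other ligands does not itself show that they differ, so the log2 ratio of each pair was compared between groups in each library. The log2 ratio of Tgfb2 to Tgfb3 counts was -0.94, -1.22 and -1.10 in controls and -0.36, -0.23 and -0.05 in iSM KO. The groups were apart, and the difference was 0.87 (standard error 0.12). For Tgfb2 to Tgfb1 the log2 ratio was 0.31, 0.21 and -0.21 in controls and 0.83, 1.09 and 0.55 in iSM KO, again without overlap, with a difference of 0.72 (standard error 0.22). Both had an exact two-sided permutation p of 0.1, the smallest that 3 against 3 mice can give, and 0.129 after Benjamini-Hochberg adjustment over the 9 pairs compared. The ratio of Tgfb1 to Tgfb3 overlapped, with a difference of 0.15 (standard error 0.27, exact permutation p = 0.6), and turned to -0.06 without iSM KO replicate 3.

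Ltbp1 (ENSMUSG00000001870, plus strand of chromosome 17, 75005568 to 75392512, 34 exons) encodes the binding protein that carries latent TGF-β into fibronectin and fibrillin matrix, in a long and a short form from the separate starts shown above. It was at 777, 903 and 809 CPM in controls and at 1298, 1294 and 1230.4 CPM in iSM KO. The iSM KO libraries lay close together and at least 327 CPM above the highest control. The means were 829.6 ± 65.6 and 1274 ± 37.8 CPM, a log2 difference of 0.62 (standard error 0.095). The gene counts do not separate the long from the short form. With each library left out in turn the log2 difference ran from 0.58 to 0.69 and the FDR from 0.00622 to 0.0414 by edgeR's quasi-likelihood test.

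Ltbp2 (ENSMUSG00000002020, minus strand of chromosome 12, 84783212 to 84876532, 36 exons) had the smallest p-value of the 8 genes, ranking 168 among all genes tested. It was at 149, 156 and 126 CPM in controls and at 256, 274 and 239 CPM in iSM KO. Here too every iSM KO library was above every control, by at least 83.5 CPM. The means were 143 ± 15.7 and 256 ± 17.3 CPM, a log2 difference of 0.84 (standard error 0.10), which ran from 0.75 to 0.90 with each library left out. Exons of Ltbp2 share 764 bp with the antisense gene D030025P21Rik, which had only 9.04 to 48.9 counts in a library, against 2998 to 10449 for Ltbp2. The antisense gene of Tgfb2, Gm29491, shares 124 bp and had at most 5 counts.

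Ltbp3 (ENSMUSG00000024940, plus strand of chromosome 19, 5740904 to 5758532, 28 exons), whose product depends on a bound ligand for its secretion, was at 401, 426 and 328 CPM in controls and at 444, 442 and 429 CPM in iSM KO. The groups did not overlap, but by a gap of 3.22 CPM, and the controls were spread far more widely (SD 50.8) than the iSM KO libraries (SD 7.68). The log2 difference of 0.19 (95% interval -0.05 to 0.43, FDR = 0.343 by edgeR's quasi-likelihood test) was 0.08 without Control replicate 3.

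Ltbp4 (ENSMUSG00000040488, minus strand of chromosome 7, 27305136 to 27337692, 33 exons), whose product is needed for elastic fibre assembly with fibulins, was at 1517, 1489 and 1349 CPM in controls and at 1276, 1412 and 1533 CPM in iSM KO. The highest and the lowest library were both iSM KO. The log2 difference was -0.04 (95% interval -0.28 to 0.19, FDR = 0.841 by edgeR's quasi-likelihood test), which bounds a fold change between 0.821 and 1.14. Its sign turned to 0.02 without iSM KO replicate 1.

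Among the 6 pairs of binding proteins, 5 had log2 count ratios that did not overlap between groups. Apart from Ltbp2 to Ltbp1, each of the 5 set a gene that rose against Ltbp3 or Ltbp4, which did not pass. Those pairs therefore restate the rises of Ltbp1 and Ltbp2. The share of such pairs over all genes was not computed. Ltbp4 to Ltbp2 moved most, from 3.34 ± 0.08 in controls to 2.45 ± 0.20 in iSM KO, a difference of -0.89 (standard error 0.12). Ltbp4 to Ltbp1 went from 0.81 ± 0.14 to 0.14 ± 0.17, Ltbp3 to Ltbp2 from 1.42 ± 0.03 to 0.78 ± 0.08 and Ltbp3 to Ltbp1 from -1.11 ± 0.18 to -1.54 ± 0.02. The log2 ratio of Ltbp2 to Ltbp1 had a higher mean in iSM KO by 0.22 (standard error 0.095), and by 0.15 without Control replicate 3. Its groups were barely apart, with -2.38 in Control 1 and -2.36 in iSM KO 3. Each of these 5 pairs had an exact permutation p of 0.1 and 0.129 after adjustment over the 9 pairs. Ltbp4 to Ltbp3 overlapped (difference -0.24, standard error 0.11, exact permutation p = 0.2).

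Lrrc32 (ENSMUSG00000090958, plus strand of chromosome 7, 98489283 to 98502181, 3 exons) varied most among controls, at 71.4, 90.1 and 51.6 CPM (coefficient of variation 27.1%), and was at 87.6, 83.2 and 93.7 CPM in iSM KO. The ranges overlapped, since Control 2 lay above iSM KO mice 1 and 2. The log2 difference was 0.31 (95% interval -0.08 to 0.69, FDR = 0.325 by edgeR's quasi-likelihood test), and it ran from 0.12 without Control replicate 3 to 0.52 without Control replicate 2. Of the cells known for GARP, markers of T cells were near 0, with Ctla4 at 0 in every library, Foxp3 at 0.21 to 0.62 CPM and 7 of 8 markers under 1 CPM throughout. The exception was Ikzf2, which rose. Platelet markers summed to 6.21 to 8.67 CPM in controls and 5.04 to 8.64 CPM in iSM KO. Endothelial markers summed to 919, 1065 and 554 CPM in controls 1 to 3 and to 311, 510 and 827 CPM in iSM KO mice 1 to 3. Their lowest level came with a Lrrc32 of 87.6 CPM in iSM KO 1. In iSM KO the endothelial sum and Lrrc32 were both highest in replicate 3. In controls both were highest in replicate 2 and lowest in replicate 3. The part of endothelial cells in the Lrrc32 level was not tested.

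Counting also members whose groups did not overlap, 5 of the 8 (Tgfb1, Tgfb2, Ltbp1, Ltbp2 and Ltbp3) were higher in all iSM KO libraries than in any control, against 15.0% of all genes tested. The median log2 fold change over all genes tested was -0.014. Across the alternatives 3 members passed the FDR, and with DESeq2 or with no filter 4, by the addition of Tgfb1.

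Levels between genes were compared as CPM per kilobase of exon (the union of annotated exons of the gene). In controls Ltbp4 stood highest at 225 ± 13.9, followed by Ltbp1 at 77.6 ± 6.14, Ltbp3 at 42.5 ± 5.61, Tgfb3 at 36.1 ± 6.96, Ltbp2 at 17.5 ± 1.92, Lrrc32 at 15.2 ± 4.11, Tgfb1 at 10.5 ± 0.15 and Tgfb2 at 9.93 ± 1.93 CPM per kilobase. Neighbours overlapped between Ltbp3 and Tgfb3, between Ltbp2 and Lrrc32 and between Tgfb1 and Tgfb2. The control mean of Tgfb2 was the lowest of the 8 with each of the 3 gene lengths used, although by the union of exons it lay above Tgfb1 in controls 1 and 2. In iSM KO the first 5 kept their places, Ltbp1 reached 119 ± 3.53 and Ltbp2 31.3 ± 2.12, and Tgfb2 followed at 20.4 ± 1.59 CPM per kilobase, overlapping Lrrc32 at 18.8 ± 1.13 but not Tgfb1 at 13.3 ± 1.56. The place of Tgfb1 is the least certain, because its union of 5042 bp holds exons beyond its longest coding transcript of 2175 bp, and with coding transcripts it stood above Tgfb2 in both groups, at 24.3 ± 0.35 and 30.8 ± 3.62 CPM per kilobase.

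**Figure D3:**
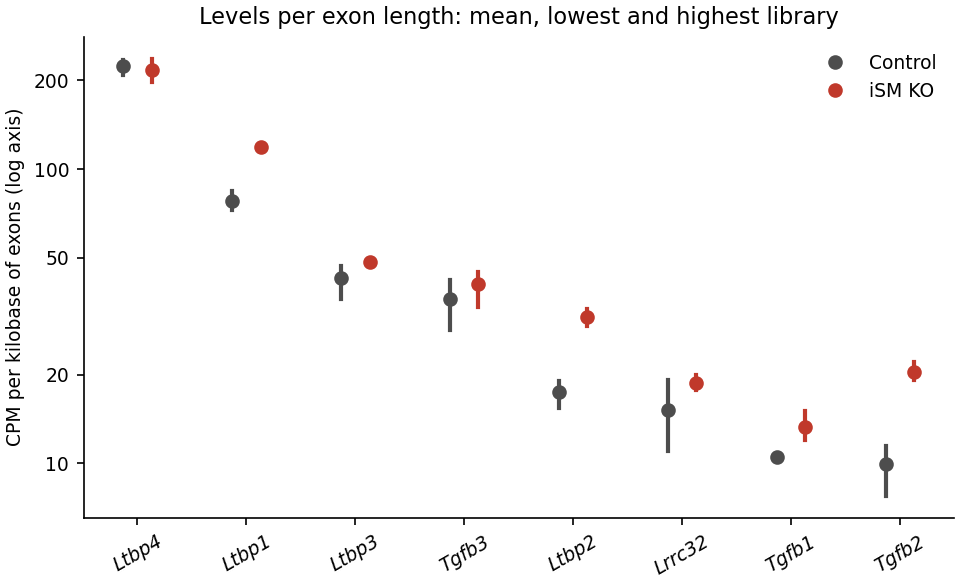
Level of each transcript as CPM per kilobase of exons (log axis), ordered by the control mean. Dots are group means and lines run from the lowest to the highest of 3 libraries, controls in grey and iSM KO in red. Tgfb2, last in controls at 9.93, lies above Tgfb1 in iSM KO by this measure of length, and Ltbp4 is highest in both groups.

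As a share of the summed ligand counts per kilobase, Tgfb2 was 19.2%, 16.7% and 16.7% in controls and 26.0%, 28.2% and 28.1% in iSM KO. It was larger by 9.90 percentage points (standard error 1.09), with no overlap. Tgfb3 was the leading ligand in every library by this length, and its share was smaller in each iSM KO library (57.1%, 56.6% and 49.9%) than in any control (63.1%, 66.6% and 61.2%), a difference of -9.08 points (standard error 2.83), although its own level did not pass the test. The Tgfb1 share overlapped, at 18.8% ± 2.92 in controls and 18.0% ± 3.56 in iSM KO, and its size depends on the gene length. With the longest protein-coding transcript it was 34.3% ± 4.24 and 32.7% ± 5.18, and in iSM KO replicate 3 Tgfb1 then led Tgfb3 by 38.5% to 37.6%. The summed ligand level was 56.5 ± 8.80 CPM per kilobase in controls and 74.3 ± 5.54 in iSM KO, a ratio of 1.32.

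In the binding proteins the share of Ltbp4 was 63.5%, 60.5% and 62.1% in controls and 49.5%, 51.8% and 55.3% in iSM KO. Ltbp1 went from 21.4% ± 1.56 to 28.7% ± 1.79 and Ltbp2 from 4.83% ± 0.22 to 7.53% ± 0.63, both without overlap, while the Ltbp3 share overlapped (11.7% ± 0.81 and 11.6% ± 0.61). The summed level of the 4 genes was 362 ± 23.4 CPM per kilobase in controls and 417 ± 15.6 in iSM KO, a ratio of 1.15. The 5 shares that did not overlap (Tgfb2, Tgfb3, Ltbp1, Ltbp2 and Ltbp4) each had an exact two-sided permutation p of 0.1, the smallest possible here, and 0.14 after adjustment over the 7 shares. They kept their direction with other gene lengths and without each library. Shares within a family add to a fixed total, so a larger share of a gene lowers the others. The 5 are therefore not separate results, and the levels of Tgfb3 and Ltbp4 did not pass the test.

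**Figure D4:**
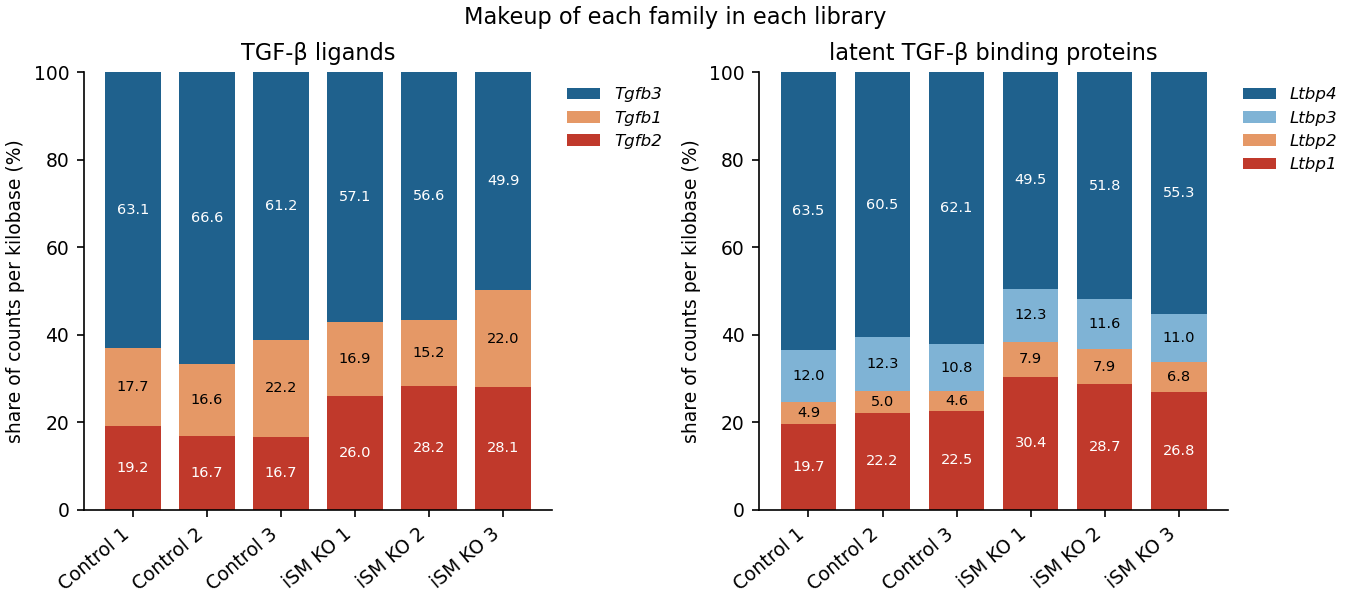
Share of each ligand (left) and of each latent binding protein (right) in the summed counts per kilobase of exons of its family, for each of the 6 libraries, with each bar adding to 100%. Numbers in the bars are percentages. The Tgfb2 share lies between 16.7% and 19.2% in controls and between 26.0% and 28.2% in iSM KO, and the Ltbp4 share is smaller in all 3 iSM KO libraries.

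The steps around the latent complex were followed with 4 lists of other genes. For processing and activation, 18 of 20 listed genes were tested (not Itgb6 and Plg), of which 4 rose and 3 fell. Over all genes tested, 7.56% were called in either direction. Plat, the tissue plasminogen activator, rose from 55.7 ± 7.92 to 125 ± 7.54 CPM (log2 fold change 1.16, FDR = 0.000474 by edgeR's quasi-likelihood test) and was the only one past a fold of 2. Pcsk5, a furin-type convertase, rose from 54.3 ± 7.95 to 85.5 ± 6.03 CPM, and its relative Pcsk6 fell from 22.2 ± 2.20 to 11.6 ± 0.53 CPM (log2 fold change -0.93, FDR = 0.00105). Cd109, a TGF-β co-receptor that dampens signalling, and Mmp14, a membrane protease that can release the ligand, rose by 0.50 each on the log2 scale (FDR = 0.0411 and 0.0489). Itgb8, which with Itgav forms an integrin that activates latent TGF-β, fell from 21.7 ± 3.75 to 14.2 ± 0.42 CPM (FDR = 0.0243). The secreted protease Htra1 fell by 0.29 on the log2 scale (FDR = 0.0490). Plat, Pcsk5 and Pcsk6 were called in every alternative, and the other calls varied. Among the alternatives Htra1 was called only with DESeq2 and limma-voom. Furin itself was at 116 ± 14.8 and 118 ± 3.28 CPM. The list had a median of -0.03 on the log2 scale beside -0.014 for all genes, and its number of calls dropped to 4 without Control replicate 1 or 3 and to 3 without iSM KO replicate 1 or 2.

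Of 17 tested genes of matrix anchoring (all listed but Fbn2), 2 rose and 1 fell, against 4.26% and 3.30% of all genes tested. The median of the list was 0.01. Adamtsl2, whose product binds Ltbp1 and fibrillin, rose from 6.44 ± 2.82 to 14.8 ± 2.96 CPM (log2 fold change 1.21, FDR = 0.0410 by edgeR's quasi-likelihood test). Mfap2, a microfibril protein that binds TGF-β, rose from 4.72 ± 0.34 to 8.65 ± 0.82 CPM (FDR = 0.00551), and Emilin1, which restrains processing of the ligand precursor, fell from 230.3 ± 13.0 to 182 ± 1.96 CPM (FDR = 0.0296). The main anchors fibrillin-1 and fibronectin did not pass the test, with Fbn1 at 403 ± 32.1 and 309 ± 28.2 CPM (FDR = 0.0514) and Fn1 at 4541 ± 1163 and 3573 ± 348 CPM (FDR = 0.302). The 3 calls dropped to 1 without Control replicate 3 or any 1 of the iSM KO libraries, and were 5 with no filter on low counts, 2 higher and 3 lower.

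None of the 12 receptor and SMAD genes passed the test with edgeR's quasi-likelihood test, 2 had an unadjusted p under 0.05, and 1 (Tgfbr2, lower) was called with DESeq2 and 0 with limma-voom. The median log2 fold change of this list was -0.07, and 7.56% of all genes tested were called in either direction. Tgfbr2, the type II receptor, was at 154 ± 16.4 and 121 ± 11.0 CPM (FDR = 0.0743), and Tgfbr3, which encodes betaglycan, at 114 ± 14.3 and 131 ± 10.6 CPM (FDR = 0.296). Without Control replicate 2 the list had 1 call. Of 15 genes known as TGF-β targets, 3 rose and none fell, against 4.26% and 3.30% of all genes tested, with a median of 0.00. These were Pmepa1 (303 ± 38.2 to 433 ± 38.2 CPM), a feedback inhibitor, Tgif1 (6.68 ± 1.48 to 10.8 ± 1.14 CPM), a SMAD corepressor, and Timp1 (7.89 ± 1.24 to 11.9 ± 0.76 CPM), a protease inhibitor. Others lay just above the threshold on the lower side, with log2 fold changes of -0.72 for Junb (FDR = 0.0517), -0.50 for Col1a1 (FDR = 0.0532) and -0.36 for Col1a2 (FDR = 0.0695), and on the higher side Ccn2 with 0.82 (FDR = 0.0598). Without any 1 of the iSM KO libraries no target was called, and without Control replicate 3 there were 2 lower and 0 higher. With DESeq2 3 were higher and 3 lower, with limma-voom 4 and 1, and with no filter 5 and 4, so neither the number nor the direction of the target genes called is settled by these data. The direct feedback gene Smad7 was at 98.2 ± 8.46 and 98.4 ± 20.4 CPM.

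**Figure D5:**
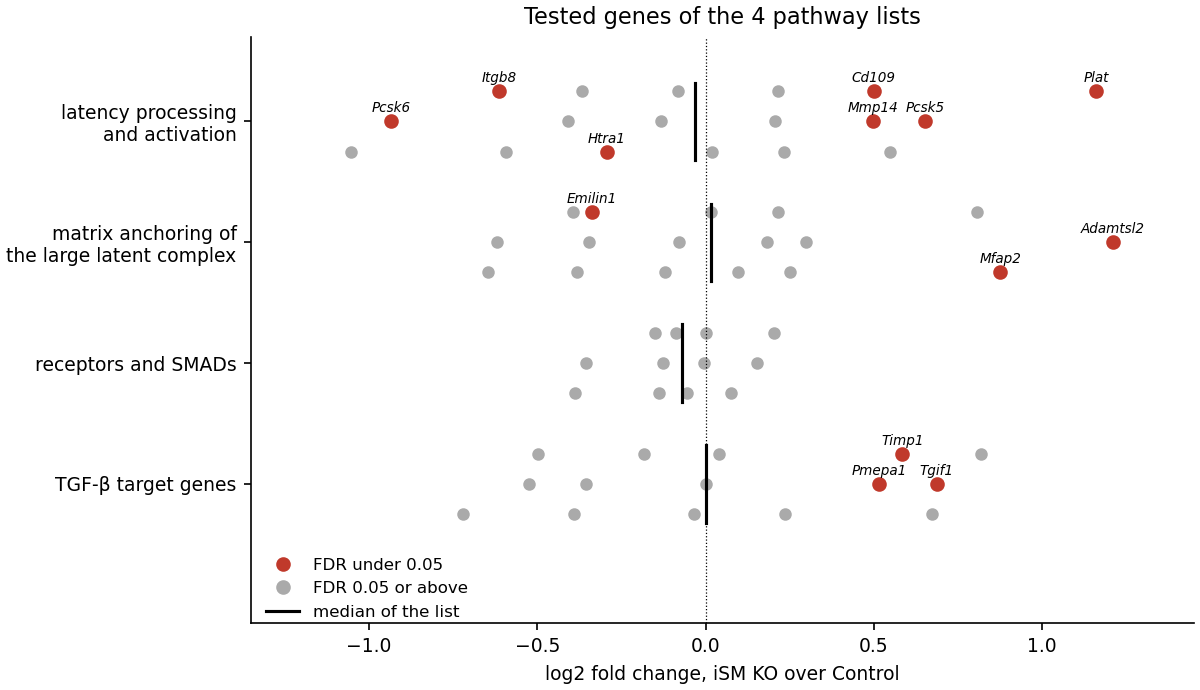
Log2 fold change, iSM KO over Control, of each tested gene in the 4 lists, red at an FDR under 0.05 and grey otherwise, with a black bar at the median of the list. Points are staggered vertically for reading. The medians lie between -0.07 and 0.01, with called genes on both sides of 0 for activation and anchoring.

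Markers of some other cell types moved with the groups. Fibroblast markers summed to 994 to 1246 CPM in controls and 754 to 775 CPM in iSM KO, of which Clec3b fell and the other 7 did not pass. Most of that sum was Col1a1, which is also in the list of TGF-β targets. The 7 other fibroblast markers summed to 241, 115 and 168 CPM in controls 1 to 3 and to 85.6, 96.8 and 131 CPM in iSM KO mice 1 to 3. Each of the 7 was highest in Control 1 among controls. Adipocyte markers summed to 54.0 to 223 CPM and 18.9 to 29.3 CPM, with 6 of 8 lower. Cardiomyocyte markers summed to 121 to 150 CPM and 161 to 215 CPM, nearly all of it Ryr2, which rose with Actn2, while the other 6 summed to 2.64 to 4.93 CPM in controls and 1.75 to 2.26 CPM in iSM KO, with 4 of them at a lower mean in iSM KO. Macrophage and Schwann cell sums overlapped. The part of these cells in the member transcripts was not tested. Without Control replicate 2, the library with the highest adipocyte sum, the log2 fold changes of Tgfb2, Ltbp1 and Ltbp2 were 1.08, 0.69 and 0.90, and without Control replicate 1, the library highest in the 7 other fibroblast markers, they were 1.15, 0.58 and 0.87. Without Control replicate 3, which had the highest Col1a1, they were 0.89, 0.60 and 0.75. The adipocyte sum and Col1a1 were higher in every control than in any iSM KO library. Leaving out a control therefore cannot test the part of these cells.

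Among 8164 genes with a mean of at least 10 CPM, those whose log2 CPM over the 6 libraries followed Tgfb2 most closely were Nacc2, Tmod1 and Cabin1 (Pearson r = 0.997 for each). Nacc2 rose from 168 to 229 CPM and Tmod1, a tropomodulin that caps actin filaments, from 14.6 to 35.6 CPM on average. Ltbp1 was followed by Col6a3 (r = 0.9996), a chain of microfibrillar collagen VI that rose from 538 to 865 CPM, then Irgq and the interleukin receptor gene Il1r1. For Ltbp2 they were the kinase gene Map2k4, Trim36 and Arhgef7. These correlations span only 6 libraries in 2 groups, and 270, 276 and 317 genes had an r over 0.95 with Tgfb2, Ltbp1 and Ltbp2.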

How the data were processed

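Aortic RNA of 6 male mice, 3 in each group, was depleted of ribosomal RNA and sequenced as paired-end reads. Mapping and quantification by the authors used DRAGEN and mouse build mm10 with Ensembl genes, and they deposited estimated counts per gene, not normalised or filtered, of which 10.9% to 12.2% of values per library were not whole. How reads matching several genes were shared, and whether strand was used, is not given in the sources used here. Counts were rounded. A gene was kept if every library of either group had more than 10 counts of it, and kept genes were fitted together in edgeR 4.0.16 (R 4.3.3) with TMM factors, no covariates and the quasi-likelihood test. The FDR is adjusted by Benjamini-Hochberg over all kept genes. "Rose" and "fell" mean an FDR under 0.05. The study used DESeq2 with a fold change over 2. Libraries are separate mice, and the edgeR test judges the difference between groups against the variation between mice.

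Log2 ratios of counts used a prior count of 0.5 and exact two-sided permutation tests (SciPy 1.17.1). Gene positions and exon lengths come from GENCODE M21 (GRCm38), and promoters from RefSeq. By blastn 2.17.0, at 95% identity over 100 bp, no member had a near-identical copy other than genes overlapping it. Named genes are all members, Prdm16, up to 4 called genes per direction in each pathway list, and the 3 most correlated genes of each member that rose. Genes of these lists named with no call, and overlapping genes, were chosen after their values were seen. The members and lists were chosen with earlier results of these data known. Alternatives were DESeq2 1.42.0, limma-voom (limma 3.58.1), other scalings and filters, a replicate block, each library left out, a prior count of 2 and 2 other gene lengths, of which the longest protein-coding transcript was chosen after seeing the data. The tests across genes were tested on simulated data. Comparison of replicates by chi-square found no pair within sampling noise. Controls differed more from each other, at 47.8 to 70.5 per degree of freedom against 12.1 to 19.4 for iSM KO. Proteins and Prdm16 exon 9 were not analysed here. Some overlaps of members with other genes are not reported here.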

Additional observations from a re-analysis of the deposited data

How the results depend on the processing

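Tgfb2, Ltbp1 and Ltbp2 kept an FDR under 0.05 and their direction in all 13 alternatives, with log2 fold changes from 0.89 to 1.15, 0.58 to 0.69 and 0.75 to 0.90. Tgfb1 passed with DESeq2 (log2 fold change 0.35, FDR = 0.0256) and with no filter on low counts (0.35, FDR = 0.0346), and with each library left out ran from 0.24 to 0.41. Ltbp4 turned to 0.019 without iSM KO replicate 1, within a range of -0.12 to 0.02. The number of members past a fold of 2 was 0 to 1, Prdm16 ran from -1.17 to -0.92, and the number of members called with each library left out was 3 throughout. Over all genes, 313 to 764 were higher and 203 to 638 lower with a library left out, and 863 were lower with no filter. With a library left out, calls ran from 3 to 6 for activation, 1 to 4 for anchoring, 0 to 1 for receptors and SMADs and 0 to 3 for targets. With no filter they were 5 for anchoring, 1 for receptors and 9 for targets, with DESeq2 1 for receptors and 6 for targets, and with limma-voom 5 for targets. The Tgfb1 to Tgfb3 log2 ratio difference ran from -0.064 to 0.30, the Tgfb1 share difference from -2.82 to 0.83 points and the Ltbp3 share difference from -0.54 to 0.24 points, and these signs are not determined. The cause of these changes was not tested.

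By replicate number, deviations of same-numbered libraries from their group mean correlated at -0.13, -0.046 and -0.11. Those of differently numbered libraries correlated at 0.00082 to 0.11. Deviations of 3 libraries from their own mean depend on each other, so this check cannot decide whether samples were paired. With the number as a replicate block, 457 genes were higher and 318 lower, and the log2 fold changes of Tgfb2, Ltbp1 and Ltbp2 were 1.05, 0.62 and 0.84 (edgeR FDR = 0.00423, 0.0212 and 0.00395), with no call of a member changed. With 3 mice a group, exact tests cannot go below 0.1.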
